A study of Mus musculus with 24 samples.

Results

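Levels of 34 genes that encode chaperones of the endoplasmic reticulum (ER) and components of the unfolded protein response were measured by RNA sequencing in the livers of 24 mice. The 34 genes were chosen by symbol, as genes of ER folding, ER-associated degradation, entry into and exit from the ER, and signalling by the response. They were chosen with earlier results of these data known. Counts of these genes set beside a share of all genes are therefore a description and not independent support. All 34 symbols were found, each once, among the 15741 genes of the 10 deposited tables, and all 34 were among the 14474 genes with a read count for each of the 24 livers. The study crossed genotype (a whole-body knockout of the kinase GCN2, KO, or wild type, WT), diet (a diet lacking leucine, LeuD, or a control diet, Control) and circadian time (CT15 or CT03). The 8 groups of 3 mice were KO LeuD CT15, KO LeuD CT03, KO Control CT15, KO Control CT03, WT LeuD CT15, WT LeuD CT03, WT Control CT15 and WT Control CT03. Per the labels' protocols, mice lived alone with food always present, took the test diet from the start of a dark phase, and were killed after 8 days of constant darkness, so the livers are from mice without light cues. The age, sex and strain of the mice are not named in the labels, and the deletion was not restricted to the liver. The comparisons address how the level of these genes differs between the circadian times, and whether diet and GCN2 alter that difference.

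Secreted and membrane proteins enter the ER through the Sec61 channel, fold there with the help of chaperones and disulfide isomerases, and leave in COPII vesicles, while proteins that fail to fold are returned to the cytosol and degraded. When unfolded proteins accumulate, the sensors IRE1 (Ern1), ATF6 (Atf6) and PERK (Eif2ak3) are activated. IRE1 splices the Xbp1 messenger RNA and ATF6 is released by cleavage, and both routes yield transcription factors that raise the transcription of chaperone and degradation genes, while PERK, like GCN2, phosphorylates the translation factor eIF2. Hepatocytes secrete most plasma proteins and hold a large ER. A count of reads per gene, the measure used here, does not tell spliced from unspliced Xbp1 and does not show sensor activity.

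Many genes of the response carry an ER stress response element (ERSE) near their start, a site that ATF6 and XBP1 are known to use. RefSeq promoters on build GRCm38.p6 were found for 29 of the 34 genes and were searched on both strands over the 250 bases before the start. Manf, Sec61a1, Hyou1, Derl1 and Atf6 were not matched. The ERSE letters, CCAAT and CCACG with 9 bases of any kind between them, were present in 9 of the 29 promoters (Hspa5, Hsp90b1, Pdia6, Calr, Canx, Dnajc3, Creld2, Syvn1 and Derl3), against 35 of 27025 genes (0.13%). The related element ERSE-II, ATTGG and CCACG with 1 base between them, was in 1 of the 29 (Herpud1) and in 0.037% of genes. Both elements end in CCACG, but no match of one lay on a match of the other in these promoters. The letters TGACGTG, found in XBP1 sites, were in Hspa5 and Sec24d (1.85% of genes), the E-box CACGTG, the element that CLOCK and BMAL1 are known to bind, was in Calr, Dnajb9, Derl3 and Ssr1 (6.86% of genes), and the amino acid response letters TGATGNAA were in Herpud1 (3.91% of genes). The 250 bases before the start are shown for 6 genes named below, with the ERSE or ERSE-II in capitals. Sdf2l1, the gene with the largest difference among those called between times with all mice included, held neither. Of the other genes called so by limma, Hspa5 and Syvn1 held an ERSE. Pdia4, Sel1l, Ern1, Sec23b and Sec24d held neither element and are not shown, and Manf and Hyou1 were not matched. Creld2, Derl3 and Herpud1 are shown but were not called by limma with all mice included. A match describes these letters and not the binding of a factor.
Hspa5 (chr2:34771840-34772089, plus strand, ERSE at bases 65 to 47 before the start): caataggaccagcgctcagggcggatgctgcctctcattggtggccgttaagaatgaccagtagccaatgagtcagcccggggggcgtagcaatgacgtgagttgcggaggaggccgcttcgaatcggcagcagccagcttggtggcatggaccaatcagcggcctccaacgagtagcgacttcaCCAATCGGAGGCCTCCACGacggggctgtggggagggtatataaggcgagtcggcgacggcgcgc
Syvn1 (chr19:6046326-6046575, plus strand, ERSE at bases 44 to 26 before the start): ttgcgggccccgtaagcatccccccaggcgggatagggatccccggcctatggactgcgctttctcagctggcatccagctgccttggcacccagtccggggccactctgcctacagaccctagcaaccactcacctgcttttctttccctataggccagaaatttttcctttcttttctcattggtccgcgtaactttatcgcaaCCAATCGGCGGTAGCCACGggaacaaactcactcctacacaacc
Creld2 (chr15:88819396-88819645, plus strand, ERSE in reverse at bases 126 to 108 before the start): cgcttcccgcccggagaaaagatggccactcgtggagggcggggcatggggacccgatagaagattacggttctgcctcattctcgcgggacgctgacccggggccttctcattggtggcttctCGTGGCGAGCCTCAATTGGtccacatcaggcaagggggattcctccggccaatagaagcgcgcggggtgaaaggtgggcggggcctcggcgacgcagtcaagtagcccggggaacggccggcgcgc
Derl3 (chr10:75893148-75893397, plus strand, ERSE in reverse at bases 156 to 138 before the start): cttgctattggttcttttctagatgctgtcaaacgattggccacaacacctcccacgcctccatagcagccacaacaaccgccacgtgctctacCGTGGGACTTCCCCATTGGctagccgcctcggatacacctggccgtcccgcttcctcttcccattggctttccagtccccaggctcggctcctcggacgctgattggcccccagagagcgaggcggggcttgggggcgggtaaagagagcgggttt
Herpud1 (chr8:94386179-94386428, plus strand, ERSE-II at bases 52 to 42 before the start): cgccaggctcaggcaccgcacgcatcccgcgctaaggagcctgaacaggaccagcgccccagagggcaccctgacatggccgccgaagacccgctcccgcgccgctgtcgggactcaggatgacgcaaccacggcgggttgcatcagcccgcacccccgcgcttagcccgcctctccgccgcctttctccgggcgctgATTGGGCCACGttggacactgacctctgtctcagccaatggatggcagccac
Sdf2l1 (chr16:17132384-17132633, minus strand, no capitals): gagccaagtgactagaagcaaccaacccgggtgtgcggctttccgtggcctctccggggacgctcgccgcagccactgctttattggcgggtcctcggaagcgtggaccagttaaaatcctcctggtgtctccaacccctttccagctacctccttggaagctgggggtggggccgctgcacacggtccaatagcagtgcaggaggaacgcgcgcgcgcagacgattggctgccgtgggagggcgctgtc

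Libraries held 34137121 to 44884200 reads in listed genes. The 10 hepatocyte markers summed to 93109 to 191037 reads per 1000000 (RPM) in each liver. Levels of Eif2ak4, the gene of GCN2, overlapped between the genotypes over all groups (243 to 463 normalized counts in KO livers, 287 to 349 in WT livers). On Control at CT03 they lay above in KO livers without overlap (458, 463 and 390, against 319, 349 and 328 in WT livers). The genotypes overlapped in the other pairs of groups of the same diet and time. A count over the whole gene does not check a deletion of part of it, so the genotypes rest on the labels. Pancreas acinar transcripts reached 15771 RPM in KO LeuD CT03 replicate 1, 8304 in KO LeuD CT15 replicate 3, 4559 in WT LeuD CT15 replicate 1, 713 in KO Control CT15 replicate 1 and 285 in KO Control CT03 replicate 3, and were 10.04 to 74.7 in the other livers. These are called the acinar libraries below, and counts or medians of the comparisons that hold them are also given without them. Mitochondrial transcripts took 2.24% to 4.14% of reads in KO LeuD livers, against 4.23% to 6.31% in the other groups, and the 6 erythroid markers summed to 78.2 to 276 RPM on LeuD, against 212 to 462 RPM on Control. Values of single livers below are normalized counts on 1 scale over the 24 livers, listed as replicates 1, 2 and 3. Differences are log2(normalized count + 1) ± SE within the deposited table of each comparison, and calls are genes with an adjusted p under 0.05 (limma, Benjamini-Hochberg, each table whole). As n is 3 throughout, a p-value reflects the spread among the mice sampled. The labels also number the libraries, and what the numbers stand for is not given. All WT CT03 livers were numbered above all KO livers. WT CT15 livers were numbered among KO livers, except WT Control replicate 1 and WT LeuD replicate 3, numbered among WT CT03 livers. KO livers at CT15 were all numbered below KO livers at CT03, and at each time KO LeuD livers below KO Control livers. Genotype at CT03, time in KO mice and diet in KO mice therefore cannot be separated from this numbering. Time in WT mice can be separated from it only in part. The part of the numbering in the differences was not tested. In whole liver, fewer cells of a type and less RNA per cell cannot be told apart.

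**Figure D1:**
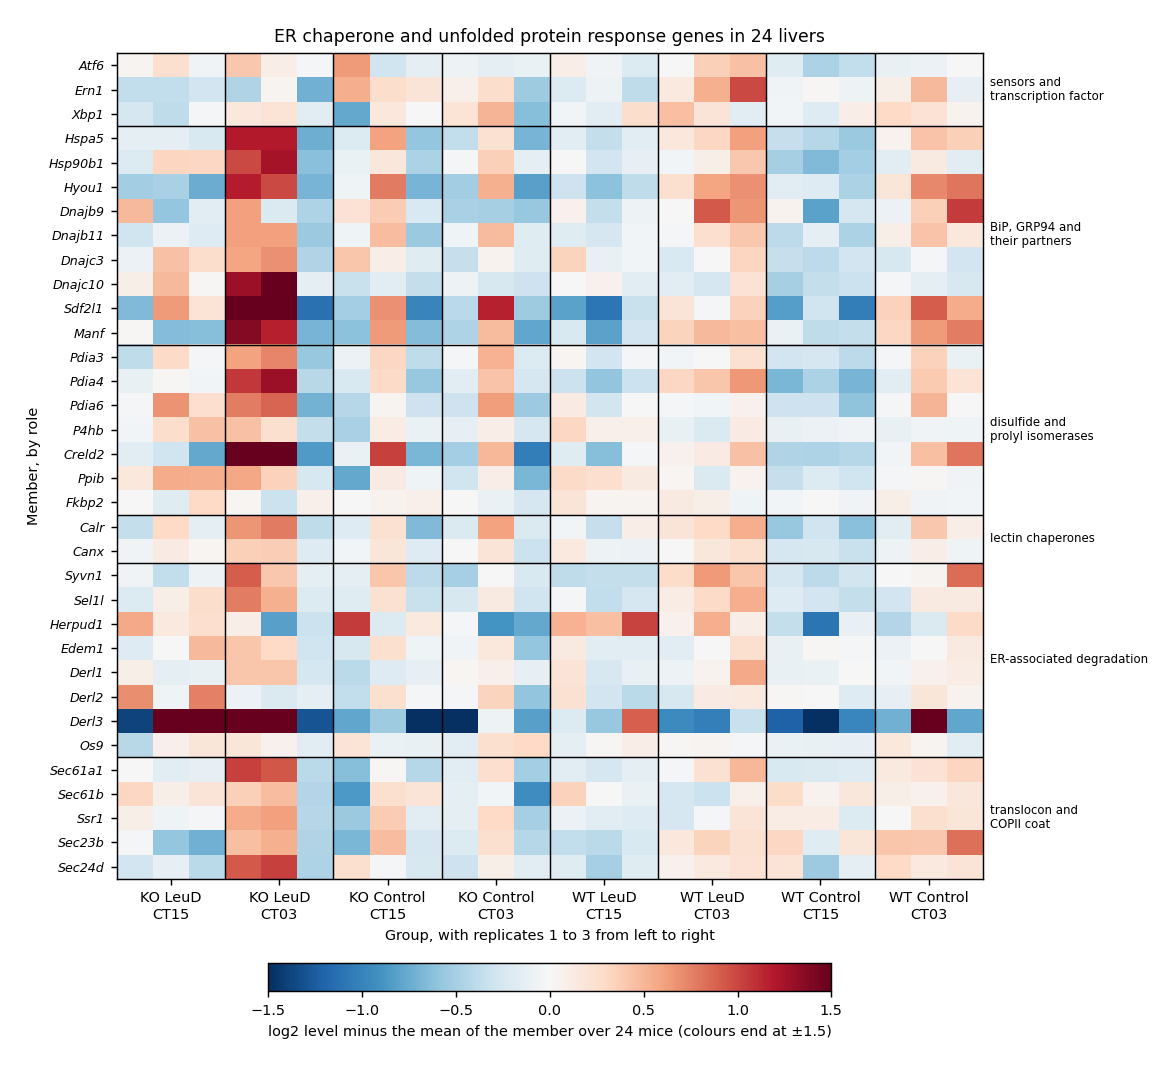
Each square is the log2 level of 1 gene (down, grouped by role) in 1 liver (across, 8 groups with replicates 1 to 3 from left to right) minus that gene's mean over the 24 livers, with colours ending at ±1.5. WT CT03 livers are mostly above WT CT15 livers, while KO LeuD CT03 replicates 1 and 2 stand high and replicate 3 stands low for most genes.

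In WT mice on the Control diet, Sdf2l1 and Manf, both genes of BiP partners, fell at CT15 relative to CT03, and 33 of the 34 genes had a negative difference. The exception was Sec61b, a subunit of the Sec61 channel (0.06 ± 0.09). The 2 called genes compare with 0.548% of all 14967 genes called lower (1.42% in either direction). In 20 of the 34 genes, all 3 CT15 livers lay below all 3 CT03 livers, which 12.2% of all genes did, and 0 of the 34 lay above without overlap (11.7% of all genes). The median difference of the 34 genes was -0.37, against 0.00 over all genes.

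Both called genes belong to the group of BiP and its partners. Sdf2l1, whose product works with J-domain cochaperones of BiP, had 892, 1284 and 770.2 normalized counts at CT15, against 2005, 2963 and 2322 at CT03, and fell by 1.32 ± 0.21 (adjusted p = 0.0359, limma). Manf, which encodes a BiP-binding factor that can be secreted, had 5116, 4209.6 and 4298 at CT15, against 6839.7, 8600.5 and 9353 at CT03, and fell by 0.86 ± 0.14 (adjusted p = 0.0376, limma). For both genes every CT15 liver lay below every CT03 liver. Hspa5, the gene of BiP itself, the main Hsp70 chaperone of the ER, had 24569, 23244 and 21263 at CT15, against 32439, 41994 and 39999.9 at CT03. The Hspa5 groups did not overlap, but the difference of -0.72 ± 0.14 missed the threshold (adjusted p = 0.0609, limma). The same held for Hyou1, a nucleotide exchange factor of BiP, at -0.85 ± 0.18 (adjusted p = 0.0699, limma), and for Hsp90b1, the gene of GRP94, at -0.50 ± 0.13. Of the 9 genes of BiP, GRP94 and their partners, 8 were below at CT15 without overlap, and Dnajb9, a J-domain cochaperone, overlapped (-0.77 ± 0.30).

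Among the disulfide and prolyl isomerases 5 of 7 were below at CT15 without overlap. Creld2, an ER protein induced by stress, differed by -0.85 ± 0.19, and the disulfide isomerase gene Pdia4 by -0.76 ± 0.15 (adjusted p = 0.0624, limma). P4hb, the classical disulfide isomerase, and Fkbp2, a prolyl isomerase, lay near 0 (-0.01 ± 0.13 and -0.03 ± 0.08). Calr and Canx, the lectin chaperones that hold glycoproteins, were both below without overlap (-0.61 ± 0.17 and -0.26 ± 0.10). Of 8 genes of ER-associated degradation, Syvn1, the ubiquitin ligase HRD1, and Derl3, a derlin of the retrotranslocation channel, did not overlap (-0.60 ± 0.21 and -1.42 ± 0.67), while Edem1, a lectin that picks out misfolded glycoproteins, was at -0.05 ± 0.10. The sensors had small differences: Atf6 -0.27 ± 0.10, without overlap, Ern1 -0.19 ± 0.15 and Xbp1 -0.23 ± 0.12, both with overlap.

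The authors' deposited table called 12 of the 34 genes lower in the same comparison and 6.2% of all genes in either direction, with Sdf2l1 (-1.31), Manf (-0.86) and Hspa5 (-0.73) at the lowest adjusted p. The limma calls depended on which mice were included: 0 of the 34 genes were called without CT03 replicate 2, CT03 replicate 3, CT15 replicate 1 or CT15 replicate 3 (0.0267%, 0.394%, 0.347% and 0.374% of all genes), only Sdf2l1 without CT15 replicate 2 (0.414%), and 6 without CT03 replicate 1 (0.889%). In these fits 32 or 33 of the 34 differences were negative. Markers of erythroid, plasma and B, and acinar cells were mostly negative, with 5 of 6 erythroid markers, while those of the other 5 lists were not (5 of 10 hepatocyte, 2 of 9 Kupffer, 1 of 6 endothelial, 3 of 7 stellate and 2 of 5 bile duct markers were negative). Of 10 plasma and B cell markers 8 had a negative difference, 5 lay below at CT15 without overlap and Cd79a, a B cell receptor chain, fell by 1.62 ± 0.28 (adjusted p = 0.0409, limma), while their sum was 37.7 to 48.8 RPM at CT15, against 30.97 to 66.2 RPM at CT03. The 14 acinar markers measured in both groups all had a negative difference, and the acinar sum was 10.04 to 33.02 RPM at CT15, against 31.1 to 34.5 RPM at CT03, and of the 24 acinar genes listed 11 and 10 were at 0 reads in 2 of the CT15 livers. Their part in the result was not tested.

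In WT mice on LeuD, 10 of the 34 genes fell at CT15 and 0 rose, in a comparison where 5.29% of 14825 genes were called lower and 9.61% in either direction. Of the 34 differences 26 were negative, the median was -0.26 against 0.01 over all genes, and 14 genes were below without overlap (16.2% of all genes were). Ppib, the secretory cyclophilin, was the 1 gene above without overlap (15.1% of all genes).

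The 10 genes came from each role but the lectin chaperones. Syvn1 had 1717, 1742 and 1750.0 normalized counts at CT15, against 2718, 3490.4 and 2994 at CT03, and fell by 0.81 ± 0.11 (adjusted p = 0.00338, limma). The 3 CT15 livers were almost equal and all CT03 livers stood well above them. Sel1l, the partner that holds the HRD1 ligase in the ER membrane, had 6102, 4833 and 5243 at CT15, against 6729, 7605 and 9064 at CT03, and fell by 0.53 ± 0.14 (adjusted p = 0.0463, limma). Pdia4 had 7084, 5853 and 7087 at CT15, against 10992, 11796 and 13841 at CT03, and fell by 0.87 ± 0.12 (adjusted p = 0.00481, limma). Both genes were lower in each CT15 liver.

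Among BiP and its partners, Hyou1 had 4753, 3877 and 4549 at CT15, against 6979, 8908 and 9510.3 at CT03, and fell by 0.94 ± 0.14 (adjusted p = 0.0053, limma). Manf had 4699.6, 3147 and 4525 at CT15, against 6945, 7691 and 7500.3 at CT03, and fell by 0.86 ± 0.15 (adjusted p = 0.0114, limma). For both, each CT15 liver lay below each CT03 liver. Sdf2l1 had 904, 746 and 1253 at CT15, against 1809, 1544 and 2005 at CT03, and fell by 0.91 ± 0.19 (adjusted p = 0.0209, limma). Hspa5 had 27927, 24332 and 27771 at CT15, against 34854, 38843 and 47828 at CT03, and fell by 0.59 ± 0.14 (adjusted p = 0.0376, limma). Neither gene overlapped between the times, and for Hspa5 the highest CT03 liver was replicate 3, the liver that was highest of its group for 26 of the 34 genes.

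Sec23b and Sec24d, subunits of the inner COPII coat that packs cargo for the Golgi, fell together. Sec23b had 1525, 1483 and 1677 at CT15, against 2209, 2489 and 2308 at CT03, and fell by 0.58 ± 0.09 (adjusted p = 0.00789, limma). Sec24d had 2644, 2126 and 2643 at CT15, against 3138, 3322 and 3477 at CT03, and fell by 0.43 ± 0.11 (adjusted p = 0.0469, limma). The groups did not overlap for either gene. Among the sensors Ern1 had 2407, 2625 and 2127 at CT15, against 3075, 4014 and 5496 at CT03, and fell by 0.78 ± 0.19 (adjusted p = 0.0417, limma). Its CT03 livers were spread more widely than its CT15 livers, with replicate 3 the highest. Atf6 (-0.32 ± 0.14) and Xbp1 (-0.14 ± 0.17) were not called and overlapped. Derl3 (0.81 ± 0.38), Herpud1, a membrane protein of the HRD1 complex (0.42 ± 0.18), and Ppib (0.27 ± 0.10) had the largest positive differences and were not called.

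The authors' deposited table called 13 of the 34 genes lower in this comparison and 13.7% of all genes in either direction. Pancreas acinar transcripts stood high in 1 liver, CT15 replicate 1. Without it 6 of the 34 genes, and 6.54% of all genes, were called (6 lower: Pdia4, Syvn1, Hyou1, Manf, Sec23b and Sel1l), and Hspa5 (-0.63, adjusted p = 0.0704, limma), Sdf2l1, Ern1 and Sec24d were not. Leaving out the other 5 livers in turn gave 4 (without CT03 replicate 2, 3.78% of all genes called) to 11 (without CT03 replicate 1, 6.28%) called genes, and Syvn1, Pdia4 and Hyou1 were called each time. Over the 6 fits that each left out 1 liver, Manf and Sec23b were called in 5 and Sel1l and Sdf2l1 in 2. Hspa5 and Ern1 were called in 1 of these fits and Sec24d in 0. The median of the 34 differences was -0.36 without the acinar library and ranged over the 6 fits between -0.37 (without CT03 replicate 1) and -0.17 (without CT15 replicate 2). The plasma cell gene Igha fell by 2.23 ± 0.29 (adjusted p = 0.00291, limma), and the plasma and B cell markers summed to 15.9 to 96.9 RPM at CT15, against 25.7 to 40.5 RPM at CT03. Their part in the result was not tested.

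**Figure D2:**
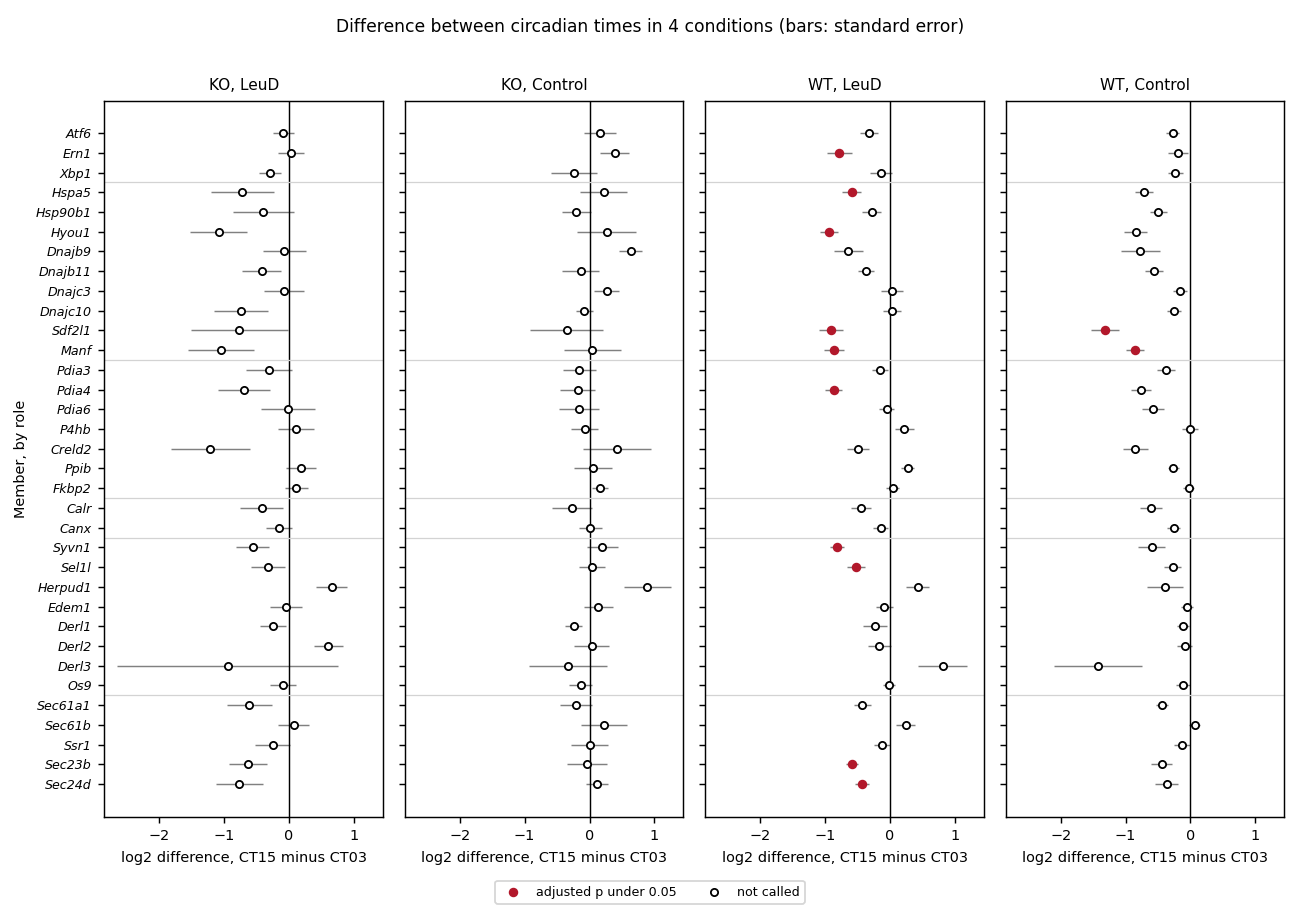
Points are the log2 difference of each gene, CT15 minus CT03, with its standard error, in 4 conditions; filled points passed an adjusted p of 0.05 (limma). In WT mice most points lie left of 0 and 10 (LeuD) and 2 (Control) are filled, while in KO mice none is filled and most error bars are longer.

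The difference between times was then compared between the diets in WT mice by a test of the difference itself. None of the 34 genes passed with limma or edgeR, where 0.00686% of all genes did with limma, and 5 had an unadjusted p under 0.05 (6.58% of all genes). Without the acinar library 3 did, and the share of all genes in that fit is not given. Of the 34 contrasts 22 were positive (median 0.11), and without that library 21 were (median 0.04). Ppib had the lowest p. It had 6559, 6404 and 5885 normalized counts in LeuD CT15 livers and 5489, 4608 and 5539.7 in LeuD CT03 livers, against 4212, 4661 and 4352 in Control CT15 livers and 5309, 5408 and 5181 in Control CT03 livers. CT15 livers stood above CT03 livers on LeuD and below them on Control, and the time differences differed by 0.54 ± 0.13 (adjusted p = 0.363, limma). The other 4 were Derl3 (2.24 ± 0.86), Herpud1 (0.82 ± 0.36), Pdia6, a disulfide isomerase (0.52 ± 0.22), and Ern1 (-0.59 ± 0.27).

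In KO mice none of the 34 genes was called between the circadian times. On the Control diet 16 of 34 differences were negative, with a median of 0.02 against 0.00 over all genes. Single mice set this split: 5 were negative without CT03 replicate 2 (median 0.18), 24 without CT03 replicate 3 (-0.14) and 25 without CT15 replicate 2 (-0.13), and without the acinar libraries 19 were negative (-0.02). limma and edgeR called none of the 34 genes (2 at an unadjusted p under 0.05 by each), where limma called 0.0407% of all genes and 12.3% had an unadjusted p under 0.05. The authors' deposited table called 0 of the 34 and 2.43% of all genes. Hspa5 had 27216, 47642 and 20904 normalized counts in KO Control CT15 livers, against 24232, 36625 and 19232 in KO Control CT03 livers (0.22 ± 0.36). Replicate 2 was the highest liver at both times, and the groups overlapped. Sdf2l1 had 1108, 2540.1 and 791 at CT15, against 1192, 3520.4 and 1088 at CT03 (-0.35 ± 0.56), again with replicate 2 highest in each group. Dnajb9, with 2742, 3067 and 2015 at CT15 against 1685, 1669.6 and 1596 at CT03, was above without overlap (0.63 ± 0.17, adjusted p = 0.264, limma). Fkbp2 was also above and Derl1, a derlin, below without overlap (0.16 ± 0.12 and -0.25 ± 0.14). Over all genes 9.73% lay above and 10.1% below. The sensors Ern1 (0.39 ± 0.22), Atf6 (0.16 ± 0.24) and Xbp1 (-0.23 ± 0.35) overlapped.

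Whether KO and WT mice on Control differed in the time difference was tested directly. None of the 34 genes passed with limma or edgeR (0.0275% of all genes did with limma), and 4 had an unadjusted p under 0.05, against 5.12% of all genes. Of the 34 contrasts 30 were positive, with a median of 0.37 against -0.01 over all genes. The median was 0.17 without KO CT15 replicate 2, 0.21 without KO CT03 replicate 3, 0.23 without WT CT03 replicate 2 and 0.52 without KO CT03 replicate 2, and 1 to 11 genes had an unadjusted p under 0.05 as each mouse was left out. Without the acinar libraries the median was 0.25, with 31 positive and 1 gene at an unadjusted p under 0.05. For the fits that leave out mice, the share of all genes at that p is not given. With all mice included, the 4 genes were Dnajb9 (1.41 ± 0.39, adjusted p = 0.976, limma), Herpud1 (1.29 ± 0.50), Hspa5 (0.94 ± 0.41) and Syvn1 (0.80 ± 0.35). The contrast holds the same 12 livers as the 2 time comparisons above. The plasma and B cell markers, 9 of which were measured in KO Control livers, summed to 11.9 to 17.0 RPM at CT15, against 24.4 to 32.5 RPM at CT03. Their part was not tested.

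On LeuD, 27 of 34 differences between times in KO mice were negative, with a median of -0.30 against 0.00 over all genes. The median was -0.13 without CT03 replicate 1, -0.12 without CT03 replicate 2 and -0.60 without CT03 replicate 3, and without the acinar libraries it was -0.18 with 24 negative. limma and edgeR called none of the 34 (3 and 8 at an unadjusted p under 0.05, against 16.2% of all genes by limma, which called 0.805%), while the authors' deposited table called Hyou1 (-1.29) and Manf (-1.26) lower and 5.68% of all genes in either direction. Hspa5 had 28191, 28460.4 and 26605 normalized counts in KO LeuD CT15 livers, against 71418, 71177 and 18748 in KO LeuD CT03 livers (-0.72 ± 0.48). Replicates 1 and 2 at CT03 had the highest Hspa5 of the 24 livers and replicate 3 the lowest. Creld2 repeated this split with 1397, 1268 and 922 at CT15, against 4757, 4876 and 869 at CT03 (-1.21 ± 0.61). Herpud1 (0.66 ± 0.24) and Derl2, a derlin (0.61 ± 0.22), were above at CT15 without overlap (11.1% of all genes were). Atf6 (-0.09 ± 0.16), Xbp1 (-0.29 ± 0.17) and Ern1 (0.03 ± 0.20) overlapped. Plasma and B cell markers were negative for 9 of 9 measured, at a sum of 8.46 to 25.1 RPM at CT15, against 27.4 to 40.9 RPM at CT03, and 4 of 6 erythroid markers lay above without overlap, at 106 to 276 RPM at CT15, against 82.9 to 129 RPM at CT03. Their part in the result was not tested. The time difference was not called as different between KO and WT mice on LeuD for any of the 34 genes by limma or edgeR, with 0.0207% of all genes called by limma and 2 genes at an unadjusted p under 0.05 (Ern1 0.81 ± 0.30 and Derl2 0.77 ± 0.31) against 9.42% of all genes. It was likewise not called as different between the diets in KO mice, with 0% of all genes called by limma, and 0 of the 34 at an unadjusted p under 0.05 by limma (6.45% of all genes) and 4 by edgeR. Leaving out the acinar libraries moved the median contrast between KO and WT on LeuD from -0.06 (13 positive) to 0.17 (28 positive). The median contrast between the diets in KO mice moved from -0.27 (5 positive) to -0.08 (14 positive).

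KO LeuD CT03 replicate 3 stood apart from its mates. It was the lowest of its group for 31 of the 34 genes, and no label sets it apart. How many of all genes were lowest in this liver was not counted, so the low levels are not shown to be particular to the 34 genes. Sdf2l1 had 4920.0, 6072 and 724 normalized counts in the 3 livers, Hyou1 13399, 11756 and 3661, and Dnajc10, an ER disulfide reductase with a J domain, 2950.0, 3774 and 1102. The 34 genes together took 13159, 14391 and 5758 RPM in replicates 1, 2 and 3. Mitochondrial transcripts took 2.24%, 2.86% and 4.14% of reads in the same livers, and acinar transcripts 15771, 51.3 and 62.3 RPM. Replicate 2 had almost the same Hspa5 level as replicate 1 with an acinar sum within the 10.04 to 74.7 RPM of the livers without excess. The part of acinar tissue in these levels was not tested. The replicate was noticed by its levels of these genes, so counts without it are a description and not a further test.

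Without KO LeuD CT03 replicate 3, 10 genes were called lower at CT15 than at CT03 in KO LeuD livers, with 605 of 14914 genes called in all. They were Hyou1 (-1.68), Creld2 (-2.04), Sec24d, Pdia4, Sec61a1, the pore subunit of the channel, Hspa5 (-1.37), Manf, Dnajc10, Dnajb11, a J-domain cochaperone, and Sdf2l1. Without the acinar libraries in place of it, which leaves CT03 replicates 2 and 3, none of the 34 was called.

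**Figure D3:**
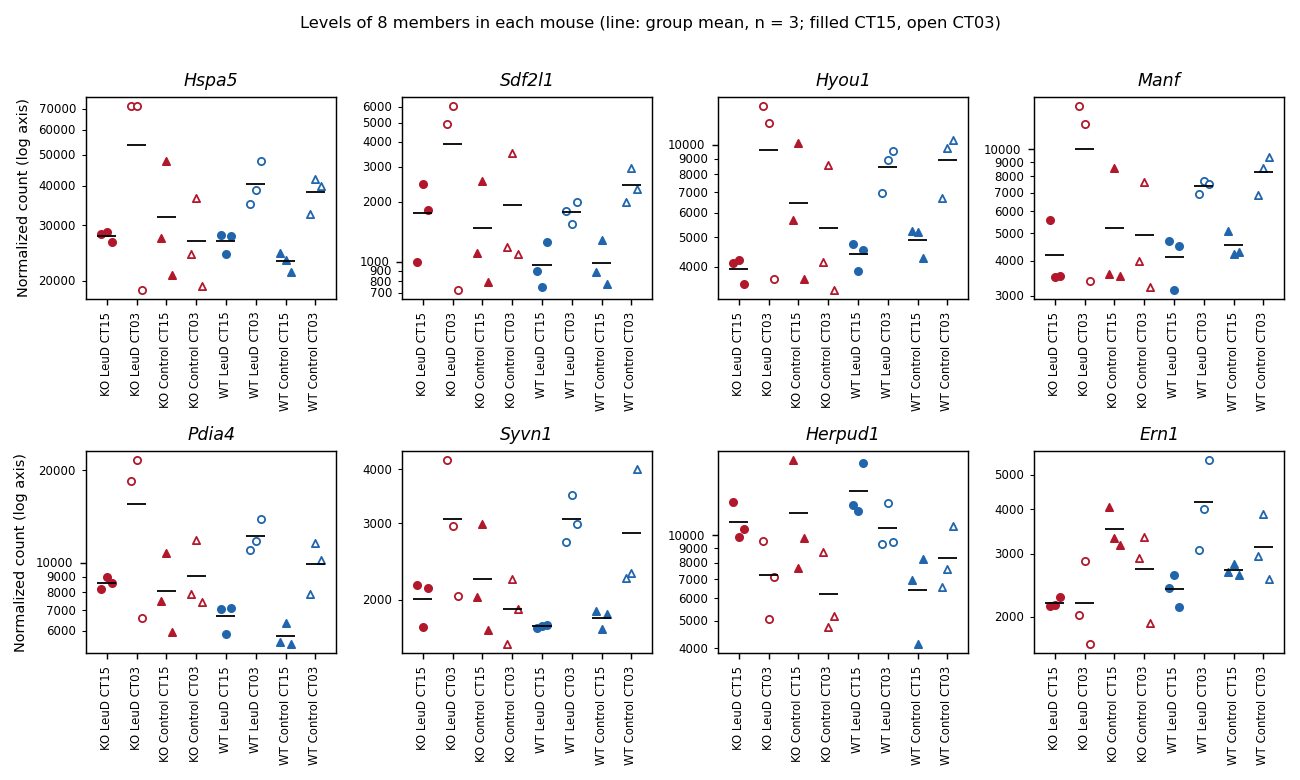
Normalized counts of 8 genes in each of the 24 livers (log axis), with a line at each group mean (n = 3), filled symbols for CT15 and open symbols for CT03. In WT mice the CT15 symbols lie below the CT03 symbols for Hspa5, Sdf2l1, Hyou1, Manf, Pdia4 and Syvn1; in KO mice single livers stand far from their mates, as in KO LeuD CT03, where Hspa5 was 71418 and 71177 in replicates 1 and 2 and 18748 in replicate 3.

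The spread of these genes among mates was wider in each KO group than in each WT group. The median SD of the 34 genes within a group, on the log2 scale, was 0.24 in KO LeuD CT15, 0.58 in KO LeuD CT03, 0.38 in KO Control CT15 and 0.38 in KO Control CT03, against 0.16 in WT LeuD CT15, 0.21 in WT LeuD CT03, 0.11 in WT Control CT15 and 0.18 in WT Control CT03. Over the 11791 to 11956 genes with a group mean of at least 50, the same medians were 0.19 to 0.24 in the KO groups and 0.14 to 0.16 in the WT groups. The highest liver was at least 2 times the lowest for 3, 19, 10 and 7 of the 34 genes in the KO groups, in the same order, against 1, 0, 0 and 2 in the WT groups. One liver was highest for most genes in KO LeuD CT03 (replicate 2, 19 of 34), KO Control CT15 (replicate 2, 26) and KO Control CT03 (replicate 2, 28), and also in WT LeuD CT15 (replicate 1, 20) and WT LeuD CT03 (replicate 3, 26). In KO LeuD CT15 and both WT Control groups no liver was highest for more than 16. Of the 5 leading livers, WT LeuD CT15 replicate 1 was an acinar library. The counts of highest livers and of genes at least 2 times the lowest were not taken over all genes. The difference in spread was not tested.

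LeuD against Control at CT15 in WT mice gave 23 positive differences of 34, with a median of 0.14 against -0.01 over all genes. None was called by limma or edgeR, where limma called 0.186% of all genes, and 11 had an unadjusted p under 0.05 by each tool, against 13% of all genes by limma. LeuD livers lay above Control livers without overlap in 10 genes, against 9.33% of all genes. These were Canx, Derl3, Dnajc10, Dnajc3, a J-domain cochaperone, Fkbp2, Herpud1, Hsp90b1, P4hb, Pdia6 and Ppib. Sec23b and Ern1 lay below (-0.44 ± 0.14 and -0.18 ± 0.11), as 9.53% of all genes did. Herpud1 had 12731, 12132 and 17930.4 normalized counts in WT LeuD CT15 livers, against 6942, 4144 and 8228 in WT Control CT15 livers (1.18 ± 0.26, adjusted p = 0.144, limma). Ppib differed by 0.51 ± 0.10 (adjusted p = 0.106, limma) with the values given above. The lowest LeuD liver lay above the highest Control liver for both genes. The authors' deposited table called 4 of the 34 genes higher (Herpud1 1.15, Ppib 0.51, Derl3 1.48 and Hsp90b1 0.43) and 3.7% of all genes in either direction. Hspa5 (0.21 ± 0.12), Atf6 (0.29 ± 0.12) and Xbp1 (0.07 ± 0.14) overlapped between the diets. Without LeuD replicate 1, the acinar library, 22 differences were positive (median 0.12) and 8 had an unadjusted p under 0.05. The share of all genes at that p in this fit is not given. The 24 acinar markers measured all had a positive difference, at a sum of 35.4 to 4559 RPM in LeuD livers, against 10.04 to 33.02 RPM in Control livers, and their part in the result was not tested.

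At CT03 none of the 34 genes was called between the diets in WT mice. The median difference was 0.01 against -0.01 over all genes, limma and edgeR called 0 (4 and 3 at an unadjusted p under 0.05, against 17.8% of all genes by limma, which called 2.24%). The authors' deposited table called 0 of the 34 and 7.22% of all genes. Hspa5 had 34854, 38843 and 47828 in WT LeuD CT03 livers, against 32439, 41994 and 39999.9 in WT Control CT03 livers (0.08 ± 0.16), with overlap. Sec23b (-0.31 ± 0.12) lay below on LeuD without overlap (11.9% of all genes did). Sdf2l1 (-0.43 ± 0.15) did so by less than 1% on the scale of the deposited table, and overlapped on the scale of the 24 livers. Atf6 (0.33 ± 0.12), Ern1 (0.40 ± 0.22) and Xbp1 (-0.03 ± 0.15) overlapped.

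In KO mice at CT03, 31 of 34 differences between LeuD and Control were positive, with a median of 0.41 against 0.00 over all genes. None was called by limma or edgeR (2 and 3 at an unadjusted p under 0.05, against 14.6% of all genes by limma, which called 0%), and the authors' deposited table called Derl3 (4.57) and Dnajc10 (1.32) higher and 3.51% of all genes in either direction. Derl3 had 1713, 2375 and 39 normalized counts in KO LeuD CT03 livers, against 27.8, 91.7 and 54.6 in KO Control CT03 livers (3.36 ± 1.45). The first 2 LeuD livers stood far above every Control liver and the third lay among them. Without KO LeuD CT03 replicate 3, 10 genes were called higher on LeuD (Derl3 5.25, Dnajc10 1.67, Sec24d, Hspa5 1.47, Pdia4, Dnajc3, Sec61a1, Hsp90b1, Creld2 and Sel1l), with 1234 of 14888 genes called in all. The acinar sum was 51.3 to 15771 RPM in LeuD livers, against 38.3 to 285 RPM in Control livers, with 26 of 26 markers positive. Without the 2 acinar libraries 21 differences were positive, the median was 0.07 and none was called. The median was 0.19 without LeuD replicate 1, 0.22 without LeuD replicate 2, 0.24 without Control replicate 3 and 0.74 without LeuD replicate 3. Atf6 (0.26 ± 0.14) and Dnajb9 (0.50 ± 0.26) lay above on LeuD without overlap (9.39% of all genes did), and Ern1 (-0.32 ± 0.27) and Xbp1 (0.04 ± 0.29) overlapped.

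**Figure D4:**
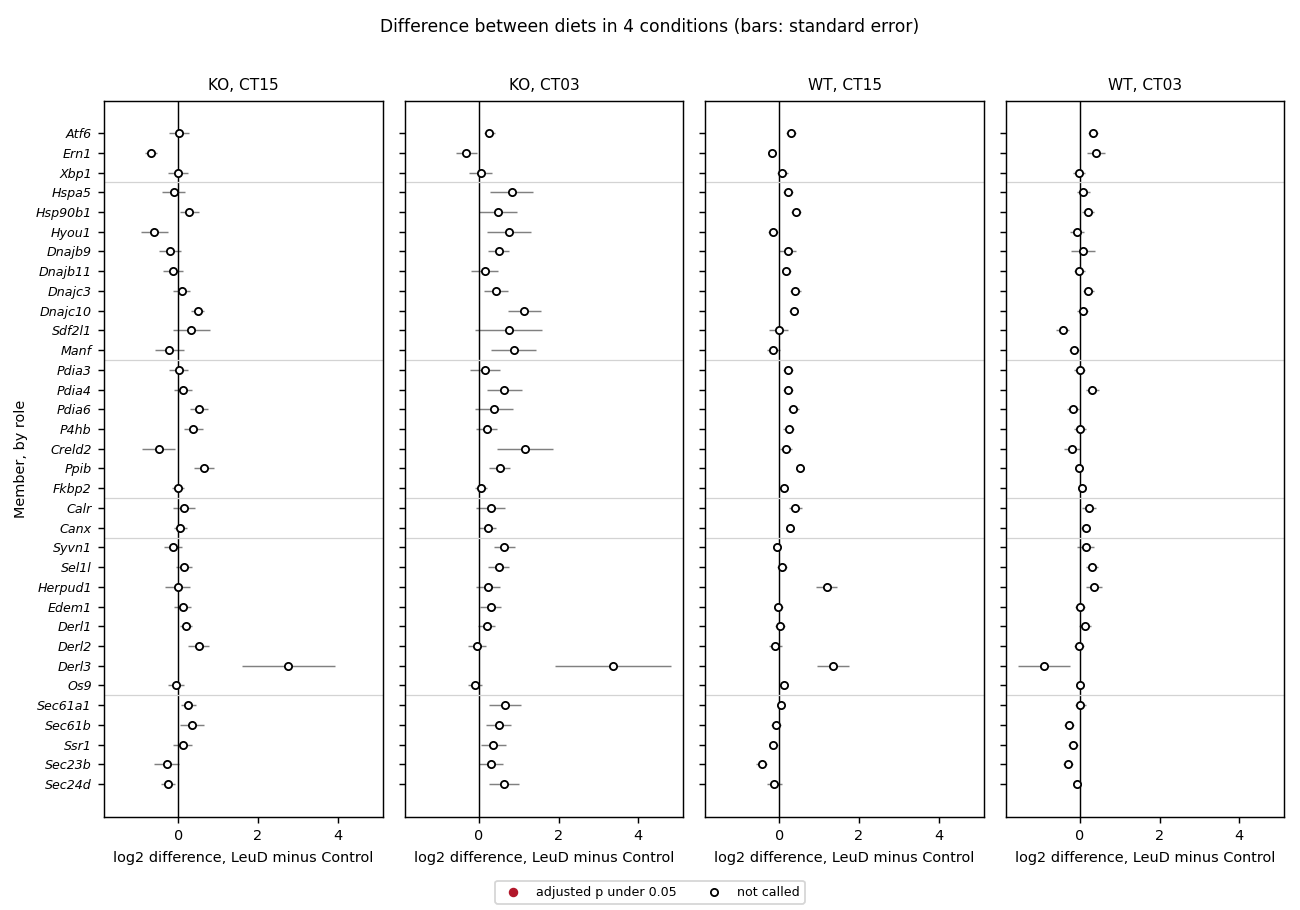
Points are the log2 difference of each gene, LeuD minus Control, with its standard error, in 4 conditions; none passed an adjusted p of 0.05 (limma). Points of KO mice at CT03 lie mostly right of 0 with long error bars, and Derl3 lies farthest right in KO mice (3.36 at CT03 and 2.75 at CT15).

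In KO mice at CT15 the median difference between diets was 0.07 against -0.01 over all genes. It was -0.02, with 16 of 34 positive against 20, without the acinar libraries, and lay between -0.05 (without Control replicate 3) and 0.21 (without Control replicate 2) as each mouse was left out, so its sign was not stable. limma and edgeR called 0 of the 34 (4 at an unadjusted p under 0.05 by each, against 16% of all genes by limma, which called 0.0202%). Ern1 had 2142, 2153 and 2269.8 normalized counts in KO LeuD CT15 livers, against 4063, 3325 and 3169 in KO Control CT15 livers, below without overlap as 11.1% of all genes were (-0.68 ± 0.15, adjusted p = 0.108, limma). The authors' deposited table called it lower (-0.69, adjusted p = 0.00761), 1 of the 34 genes, beside 4.82% of all genes in either direction. Ppib, with 5989.9, 7894 and 7816 on LeuD against 3157, 5856 and 5119 on Control (0.65 ± 0.25), and Dnajc10, with 1283, 1705 and 1229.9 on LeuD against 961, 1073 and 947 on Control (0.48 ± 0.17), lay above without overlap, as 11.9% of all genes did. Derl3 had 36.5, 1090.2 and 563 on LeuD, against 56.3, 66.8 and 18.2 on Control (2.75 ± 1.17), with LeuD replicate 1 among the Control livers. The acinar sum was 42.4 to 8304 RPM on LeuD, against 40.8 to 713 RPM on Control, with 25 of 25 markers positive, and its part was not tested. Hspa5 (-0.12 ± 0.30), Atf6 (0.01 ± 0.25) and Xbp1 (-0.02 ± 0.26) overlapped between the diets.

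KO and WT livers were compared within each diet and time, and none of the 34 genes was called by limma or edgeR in any of these 4 comparisons. On Control at CT03, 30 of 34 differences were negative, with a median of -0.20 against -0.01 over all genes, and 6 genes had an unadjusted p under 0.05 by limma and 5 by edgeR, against 8.18% of all genes by limma, which called 0.0136%. Dnajb9 had 1685, 1669.6 and 1596 normalized counts in KO Control CT03 livers, against 2224, 3037 and 4876 in WT Control CT03 livers (-0.96 ± 0.25, adjusted p = 0.534, limma). It lay below without overlap, as did Sec23b, Syvn1, Sec61b and Sec24d, and 7.6% of all genes did. The authors' deposited table called Dnajb9 lower (-1.04), beside 0.649% of all genes in either direction. Without the acinar library, KO replicate 3, the median was -0.05 with 22 negative, and without KO replicate 2 it was -0.37 with 33 negative.

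On Control at CT15, 26 of 34 differences were positive (median 0.18), and 5 genes lay above in KO livers without overlap, against 6.52% of all genes. These were Ern1 (0.37 ± 0.13), Hsp90b1 (0.42 ± 0.19), Dnajc3 (0.45 ± 0.17), Canx (0.25 ± 0.14) and Fkbp2 (0.07 ± 0.10), and Derl1 (-0.17 ± 0.12) lay below without overlap, as 6.73% of all genes did. Without the acinar library, KO replicate 1, 31 differences were positive (median 0.26). Without KO replicate 2, 20 were positive (0.04), and without KO replicate 3, 25 were (0.32). At an unadjusted p under 0.05, limma had 2 of the 34 genes and edgeR 3, against 5.49% of all genes by limma, which called 0.0798%. KO livers also had lower plasma and B cell markers in this comparison, 8 of 10 without overlap, at a sum of 11.9 to 17.0 RPM in KO livers, against 37.7 to 48.8 RPM in WT livers. The acinar sum was 40.8 to 713 RPM in KO livers, against 10.04 to 33.02 RPM in WT livers. The part of either list was not tested.

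On LeuD the genotypes were not analysed in 1 deposited table and were compared on the scale of the 24 livers. At CT03, 24 of 34 differences were positive (median 0.15, limma called 0.0484% of all genes), with 4 genes at an unadjusted p under 0.05 by limma (13.7% of all genes) and 3 by edgeR. Ern1 had 2020.5, 2859 and 1679.6 normalized counts in KO LeuD CT03 livers, against 3075, 4014 and 5496 in WT LeuD CT03 livers, below without overlap as 9.71% of all genes were (-0.93 ± 0.26, adjusted p = 0.25, limma). Without KO replicate 3, 15 genes were called higher in KO livers, among them Derl3, Sdf2l1, Creld2, Dnajc10 and Hspa5 (0.83), with 1942 of 14474 genes called. Without the acinar library, KO replicate 1, 14 differences were positive, the median was -0.05 and none was called. It was -0.04 without KO replicate 2, 0.07 without WT replicate 1 and 0.46 without KO replicate 3. At CT15 the median was 0.06 (0.14 without the acinar libraries, 0.02 to 0.13 as each mouse was left out) with 3 genes at an unadjusted p under 0.05 by limma (18.6% of all genes) and 4 by edgeR, and limma called 1.89% of all genes. Pdia4 (0.37 ± 0.12) and Ssr1, a subunit of the translocon-associated complex (0.15 ± 0.11), lay above in KO livers without overlap (12.9% of all genes did). Without KO replicate 1 at CT15, 1 of the 34 genes, Derl3 (2.96), was called higher, with 218 of 14474 genes called.

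The diet difference was compared between the genotypes by its own test at each time. At CT03 none of the 34 genes passed with limma or edgeR, where limma called 0% of all genes, with 2 at an unadjusted p under 0.05 by each (13.2% of all genes by limma). These were Derl3 (4.26 ± 1.79) and Dnajc10 (1.07 ± 0.48). Of the 34 contrasts 28 were positive (median 0.30), and without the acinar libraries 17 were (median 0.01). Without KO LeuD CT03 replicate 3, 9 were called (Dnajc10, Sec24d, Derl3, Creld2, Manf, Hspa5, Sec61a1, Sdf2l1 and Sec23b), with 1064 of 14497 genes called. At CT15 none passed by either tool, where limma called 0.0206% of all genes, and Ern1 (-0.50 ± 0.17) and Herpud1 (-1.20 ± 0.45) had an unadjusted p under 0.05, against 12.1% of all genes. There 14 of the 34 contrasts were positive (median -0.09), and 13 were without the acinar libraries (median -0.08).

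**Figure D5:**
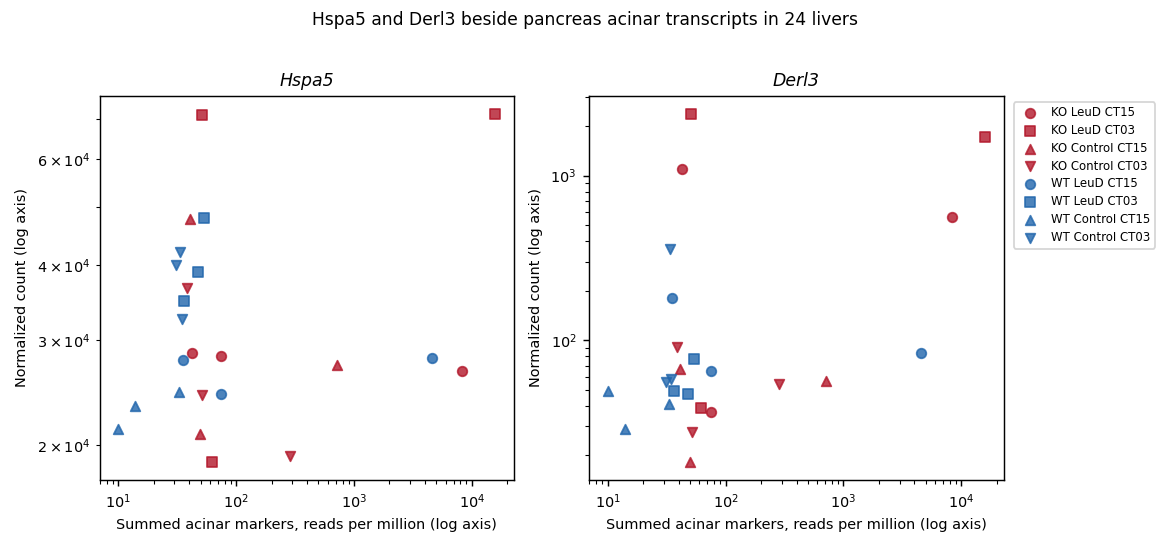
Hspa5 and Derl3 (normalized counts, log axis) against the summed pancreas acinar markers (RPM, log axis) in each of the 24 livers, coloured by genotype with 1 symbol per diet and time. The highest Hspa5 levels are in KO LeuD CT03 replicate 1, with 15771 RPM, and replicate 2, with 51.3 RPM.

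On the log2 scale, Derl3 varied more over the 24 livers than any other of the 34 genes. It was above 500 normalized counts in 4 livers, all KO LeuD: CT15 replicates 2 and 3 and CT03 replicates 1 and 2. Acinar transcripts were 42.4, 8304, 15771 and 51.3 RPM in these livers. In the other KO LeuD livers Derl3 was 36.5 at CT15 and 39.01 at CT03. WT LeuD CT15 replicate 1, with 4559 RPM, had 83.7.

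Other genes of the same pathways were read from 5 lists. In WT LeuD livers, where 5.29% of all genes were called lower at CT15 and 9.61% in either direction, most lists had few calls. A list of 16 other sensors, transducers and genes of the PERK branch had 4 members that fell at CT15 and 1 that rose. Eif2ak3, the gene of PERK, had 455, 508 and 466 normalized counts at CT15, against 698, 927 and 917 at CT03, and fell by 0.82 ± 0.13 (adjusted p = 0.00791, limma). Its groups did not overlap. Creb3l2, a membrane-bound transcription factor, fell by 0.87 ± 0.18, Mbtps1, the protease that cleaves ATF6, by 0.35 ± 0.08, and Ppp1r15a, an eIF2 phosphatase subunit, by 0.44 ± 0.11, while its paralogue Ppp1r15b rose by 0.58 ± 0.13. Of 20 measured other degradation factors 2 fell (Selenos -0.41 and Ubxn4 -0.45) and 0 rose. Of 30 other translocon, signal peptidase and oligosaccharyltransferase genes 1 rose (Dad1, 0.35) and 0 fell. Of 21 other COPII and Golgi transport genes 1 rose (Sar1b, 0.34) and 1 fell (Sec16a, -0.47), and of 22 other folding factors none was called.

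In WT Control livers none of the 5 lists had a called member between the times, and 11 of 16, 18 of 21, 25 of 30, 14 of 21 and 16 of 22 differences were negative in the same order of lists, with medians of -0.15 to -0.10. Elsewhere the 5 lists had 2 calls, both of Trib3, a pseudokinase induced by ATF4. It rose by 2.29 ± 0.40 on LeuD in WT mice at CT03 (adjusted p = 0.0292, limma), with 446, 630.4 and 1578 normalized counts in LeuD livers against 133, 183 and 152 in Control livers. On LeuD at CT15 it was lower by 1.22 ± 0.18 in KO than in WT mice (adjusted p = 0.0202, limma). It had 139, 139 and 135 in KO livers against 264, 329.9 and 385 in WT livers. Neither pair of groups overlapped. At CT03 Trib3 was 1056, 1485 and 261 in KO LeuD livers and 668, 156 and 909 in KO Control livers. Both of these groups overlapped each other and the WT LeuD CT03 livers. Ddit3, the stress factor CHOP, had 1231, 783 and 419.6 in KO LeuD CT03 livers and was lowest in replicate 3, the replicate in which 31 of the 34 genes were lowest. The list of sensors, transducers and PERK branch genes was mixed in these livers. Atf3, Trib3, Eif2ak3, Ppp1r15a, Creb3, Creb3l2, Mbtps2 and Wfs1 were also lowest in replicate 3. Atf4, Bbc3, Ppp1r15b and Tmbim6 were highest there, and Chac1, Creb3l3 and Mbtps1 lay between their mates.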

How the data were processed

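RNA from 24 mouse livers was read as polyadenylated messenger RNA with a kit that does not mark strand, per the labels' protocols, so a gene's reads cannot be separated from those of a gene on the other strand. The submitters' processing notes name Trimmomatic 0.36, STAR 2.5.2b, featureCounts of Subread 1.5.2, DESeq, DESeq2 and build GRCm39. The sources used here do not give their roles and settings. The authors deposited 10 tables of 14674 to 15073 genes, per the file headers each with normalized counts (counts divided by a library factor, a signal), the authors' log2 fold change and their p-values and adjusted p-values. The filter on low genes is not given, and the lowest sum over a table's libraries was 61 reads. Dividing the deposited values by their step gave whole reads for 100% of values (tolerance 0.01) in 60 library columns. Reads of a gene absent from a library's first table were taken from its other tables, with 0 conflicts. No column lacked a sample (0). Depth was 34137121 to 44884200 reads per library, so counting error was small beside the spread among mice for all but the lowest genes.

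From these values, log2(normalized count + 1) was tested within each deposited table with limma 3.58.1 (trend and a moderated variance, R 4.3.3), with p-values adjusted by Benjamini-Hochberg across the whole table and a threshold of 0.05. Genotype on LeuD used the recovered reads on 1 median-ratio scale over the 24 libraries, as did the printed levels. The 6 tests of a difference between differences used each library's value from the table of its own comparison, for genes with a mean of at least 10 in one of them. A log2 difference with the added count of 1 understates the change of low genes. Groups follow the labels, with 3 mice each; p-values measure the spread among these mice, and the labels do not say whether litters or cages were shared. The members and all gene lists were chosen with earlier results of these data known. The text gives each library's value for Hspa5 and for called members, gives the sensors in each time and diet comparison, and names other members by their place without overlap or their unadjusted p. Alternatives were an added count of 8, a mean of at least 50, TMM scaling, edgeR 4.0.16 (quasi-likelihood) on the recovered reads, 1 fit over 24 libraries, the replicate number as a block, leaving out libraries with over 200 RPM of acinar markers, leaving out each mouse, and the authors' own adjusted p. The tests were run on simulated data first. Marker lists of acinar, plasma and B, erythroid, hepatocyte, Kupffer, endothelial, stellate and bile duct cells were read beside the results. Promoters are those of RefSeq on GRCm38.p6, and no coordinate was carried between builds.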

Additional observations from a re-analysis of the deposited data

Results flagged for a closer look

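In WT mice Ppib, the secretory cyclophilin, moved in opposite directions between the circadian times on the diets. CT15 livers lay above CT03 livers without overlap on LeuD (0.27) and below them without overlap on Control (-0.27), a Control minus LeuD gap of -0.54 on the log2 scale. The difference itself was 0.54 ± 0.13 and did not pass the test (adjusted p = 0.363, limma).

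Ern1, the gene of IRE1, lay above in KO livers without overlap on Control at CT15 (0.37) and below in KO livers without overlap on LeuD at CT03 (-0.93), a gap of 1.31 on the log2 scale. This difference was not tested.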

How the results depend on the processing

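The added count of 8, the mean of at least 50, TMM scaling and edgeR moved none of the 18 counts of called genes by over 1.5 times. In 1 fit over the 24 libraries, the count was 0 for time in WT Control (2 as reported), 1 for time in WT LeuD (10 as reported), 1 for diet in KO CT03 and 1 for genotype on LeuD CT03 (0 as reported in both). With the replicate number as a block it was 1 for time in WT Control, 6 for time in WT LeuD and 1 for diet in WT CT15 (0 as reported). The share of all genes called in the fit over 24 libraries and in the block fits is not given. These moves are therefore not set against calling over all genes. The numbers did not pair the mice: in no comparison were all 3 correlations of same-numbered mice over 0.1, nor did every mouse correlate best with its own number. Without the acinar libraries, time in WT LeuD had 6 (6.54% of all genes called). By the authors' adjusted p the counts, with the share of all genes, were 12 for time in WT Control (6.2%), 2 for time in KO LeuD (5.68%), 4 for diet in WT CT15 (3.7%), 2 for diet in KO CT03 (3.51%), 1 for diet in KO CT15 (4.82%) and 1 for genotype on Control CT03 (0.649%). Leaving out each mouse gave 0 to 6 for time in WT Control, 4 to 11 for time in WT LeuD, 0 to 10 for time in KO LeuD, 0 to 10 for diet in KO CT03, 0 to 15 for genotype on LeuD CT03, 0 to 1 for genotype on LeuD CT15 and 0 to 9 for diet by genotype at CT03. For the fits that leave out a mouse, calls over all genes are given only for those named in the results above. Fewer libraries lower the power to call. The cause of the other moves was not tested. Of uncalled single genes, some turned sign. Without the acinar libraries Atf6 was -0.12 for time in KO Control and 0.10 for time in KO LeuD, Ern1 -0.034 for time in KO LeuD, and Xbp1 -0.34 for diet in KO CT03. With edgeR Ern1 was -0.023 for time in KO LeuD, Xbp1 -0.025 for diet in KO CT03 and Atf6 -0.052 for diet in KO CT15, and by the authors' table the same were -0.00366, -0.026 and -0.044. Leaving out each mouse gave Xbp1 -0.29 to 0.0069 for time in WT LeuD, Hspa5 -0.12 to 0.48, Xbp1 -0.57 to 0.049 and Atf6 -0.12 to 0.34 for time in KO Control, Atf6 -0.18 to 0.036 and Ern1 -0.14 to 0.24 for time in KO LeuD, Hspa5 -0.044 to 0.18 and Xbp1 -0.17 to 0.13 for diet in WT CT03, Xbp1 -0.049 to 0.16 for diet in WT CT15 and -0.29 to 0.28 for diet in KO CT03, and Hspa5 -0.38 to 0.21, Xbp1 -0.30 to 0.17 and Atf6 -0.17 to 0.29 for diet in KO CT15. Over all settings of the named genes 481 values kept direction and side of the threshold, 57 lost the call, 5 gained one and 35 turned sign.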

Other observations

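Among the marker lists, genes of liver cell types were rarely called. Tat, a hepatocyte enzyme of tyrosine breakdown, rose at CT15 in WT LeuD livers (0.72 ± 0.17), 1 of 10 hepatocyte markers. Alas2, the erythroid enzyme of heme synthesis, fell on LeuD in WT livers at CT03 by 1.24 ± 0.19, 1 of 6 erythroid markers, and all 6 had a negative difference on LeuD in each of the 4 diet comparisons. Ighm, an antibody heavy chain, fell in the same comparison by 1.18 ± 0.24. Sox9, a bile duct marker, was higher in KO than in WT livers on LeuD at CT15 (1.35 ± 0.25), 1 of 5 or 6 bile duct markers measured. No Kupffer, endothelial, stellate or acinar marker was called by limma in any of the 18 tests.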
